A study of Mus musculus with 4 samples.

Results

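The genes described here encode enzymes that build, interconvert or inactivate steroid hormones in the liver. They were taken by name, as the rows of the deposited table that the platform annotation assigns to exactly 1 gene symbol out of 9 listed ones. Such a row existed for 8 of the 9 genes, among 19938 genes with such rows in all: Hsd3b5, Hsd3b2, Hsd3b3, Hsd17b2, Hsd17b6, Hsd11b1, Akr1c6 and Cyp17a1. Srd5a1, which encodes a steroid 5-alpha reductase, was not analysed here.

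RNA was measured in livers of 8-week-old mice on 4 arrays. The genotypes were loss of both the growth hormone receptor (GHR) and MDR2, loss of GHR alone, loss of MDR2 alone, and wild type, called double-null, GHR-null, MDR2-null and wild-type below. Each array held RNA pooled from 3 livers of 1 genotype, all labelled male. The labels give no strain and do not say whether either knockout was limited to a cell type. MDR2, the product of Abcb4, carries phosphatidylcholine into bile, and mice that lack it develop cholestasis and liver fibrosis. By its title, the study concerns fibrosis of such livers when growth hormone signalling is also missing. With 1 array per genotype there is no replicate, so a difference between 2 pools carries no p-value.

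The liver clears much of the circulating androgen, oestrogen and glucocorticoid. Hydroxysteroid dehydrogenases switch a hydroxyl group of the steroid to a keto group or back, which turns a strong hormone into a weak one or the reverse, and several are made at different levels in male and female mouse liver. Pulsatile growth hormone, acting through its receptor and the transcription factor STAT5B, maintains much of that male pattern.

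The GHR-null pool, labelled male, showed a transcript of females as well as Y-linked ones. Xist, a transcript made from the inactive X chromosome of females, stood at 17 in double-null, 1400 in GHR-null, 18 in MDR2-null and 16 in wild-type liver. The summed intensity of 3 Y-linked genes was 1584 in double-null, 1247 in GHR-null, 1397 in MDR2-null and 1528 in wild-type liver. Values that use GHR-null liver are therefore given beside those of the other 3 pools. Ghr read 935 in double-null and 1395 in GHR-null liver, against 4485 in MDR2-null and 4944 in wild-type liver. Abcb4 read 689 in double-null and 663 in MDR2-null liver, against 1346 in GHR-null and 1120 in wild-type liver. The parts of these genes that the probes cover are not given in the sources used here. Of the hepatocyte markers, 9 were measured, at 6887 to 15283 in all pools. The defining markers of steroid-producing glands that were measured were low. Among them, 7 adrenal cortex markers, with Star, Cyp11a1, Cyp11b1 and Cyp21a1, lay at 14 to 107, and 6 Leydig cell markers at 11 to 107. Star, Cyp11a1 and Nr5a1 are in both lists, and Nr5a1, at 93 to 107, gave the upper end of both. The adrenal marker Akr1b7 and the Leydig cell markers Insl3 and Lhcgr were listed but not measured. Summed adrenal markers were 277 in double-null, 275 in GHR-null, 318 in MDR2-null and 293 in wild-type liver, and summed Leydig cell markers were 231, 232, 265 and 260 in the same order of pools. In whole liver, fewer cells of a type and less RNA per cell cannot be told apart.

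Of the genes described here, 3 lie side by side on mouse chromosome 3, in a cluster of 3-beta-hydroxysteroid dehydrogenase genes. Hsd3b5 encodes a liver enzyme that in the mouse works mainly as a 3-ketosteroid reductase and inactivates androgens such as dihydrotestosterone. Hsd3b2 and Hsd3b3 encode members of the same family, named for the dehydrogenase and isomerase step that makes steroids such as progesterone and androstenedione. The 250 bases before their annotated starts are shown because these neighbours had quite different levels across the pools. They are from RefSeq, build GRCm38.p6, minus strand, at chr3:98645535-98645784 for Hsd3b5, chr3:98724544-98724793 for Hsd3b2 and chr3:98762411-98762660 for Hsd3b3, whose annotation holds another start as well. Capitals mark the longest run shared by Hsd3b5 and Hsd3b3.
Hsd3b5: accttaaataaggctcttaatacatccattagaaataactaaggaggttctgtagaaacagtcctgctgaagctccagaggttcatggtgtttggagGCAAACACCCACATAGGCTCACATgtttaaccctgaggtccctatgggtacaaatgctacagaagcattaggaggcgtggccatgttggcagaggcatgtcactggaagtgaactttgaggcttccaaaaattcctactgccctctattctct
Hsd3b3: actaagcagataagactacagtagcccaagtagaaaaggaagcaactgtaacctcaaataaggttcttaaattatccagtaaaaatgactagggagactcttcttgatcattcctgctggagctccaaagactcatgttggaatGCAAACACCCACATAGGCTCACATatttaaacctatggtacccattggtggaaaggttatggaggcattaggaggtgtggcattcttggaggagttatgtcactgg
Hsd3b2: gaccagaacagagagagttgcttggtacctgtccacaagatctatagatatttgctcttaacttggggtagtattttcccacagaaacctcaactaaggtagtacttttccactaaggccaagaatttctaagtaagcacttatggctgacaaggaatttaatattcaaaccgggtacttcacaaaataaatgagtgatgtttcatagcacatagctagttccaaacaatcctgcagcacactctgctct
The shared run of 24 bases occurs in 3 of 32851 RefSeq promoter windows of this length, those of Hsd3b5 and both of Hsd3b3. In pairwise alignments, Hsd3b5 and Hsd3b3 match at 76.5% of 200 aligned bases. Hsd3b5 and Hsd3b2 match at 67.9% of 190 aligned bases, with no shared run longer than 8 bases. Hsd3b2 and Hsd3b3 match at 63.9% of 180 aligned bases, with the same longest run. Bases opposite gaps were not counted, and the identity of unrelated windows was not measured, so these percentages have no background beside them. The letters TTCNNNGAA, the palindrome that STAT5 and other STAT proteins bind (it reads the same on both strands), were searched in the windows of the 6 genes that have one here, and none held it. It occurs in 7.02% of all windows. Windows for Hsd17b2 and Cyp17a1 were not used here.

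Hsd3b5 had the widest range of the 8 genes. Its intensity was 20 in double-null, 21 in GHR-null and 367 in MDR2-null liver, against 3877 in wild-type liver. Both pools without GHR were at the bottom, and MDR2-null liver lay between them and wild-type. Taken at face value it was 194-fold lower in double-null, 185-fold lower in GHR-null and 10.6-fold lower in MDR2-null liver than in wild-type liver. Intensities under 100, the median of all rows with 1 symbol, may lie within background, so these folds are not exact. With intensities under 100 set to 100, Hsd3b5 was 38.8-fold lower in double-null and in GHR-null liver than in wild-type. With GHR-null liver left out, it was 18.4-fold lower in double-null than in MDR2-null liver, or 3.67-fold with the same floor.

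Hsd3b2, next to Hsd3b5 on the chromosome, differed in steps. It read 150 in double-null, 427 in GHR-null and 880 in MDR2-null liver, against 2131 in wild-type liver. It was lower with either loss, whether the other gene was present or not. It was 14.2-fold lower in double-null than in wild-type liver, 5.87-fold lower in double-null than in MDR2-null liver and 4.99-fold lower in GHR-null than in wild-type liver. It was also 2.85-fold lower in double-null than in GHR-null liver and 2.42-fold lower in MDR2-null than in wild-type liver. Hsd3b3 read 1514, 1530 and 1988 in double-null, GHR-null and MDR2-null liver, against 2494 in wild-type liver. No pair of pools differed 2-fold in it, and the lowest pool was 1.65-fold below wild-type. Hsd3b3, whose promoter window resembled that of Hsd3b5 more than the Hsd3b2 window did, had the smallest range of the 3. Whether promoter sequence bears on these levels was not tested.

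**Figure D1:**
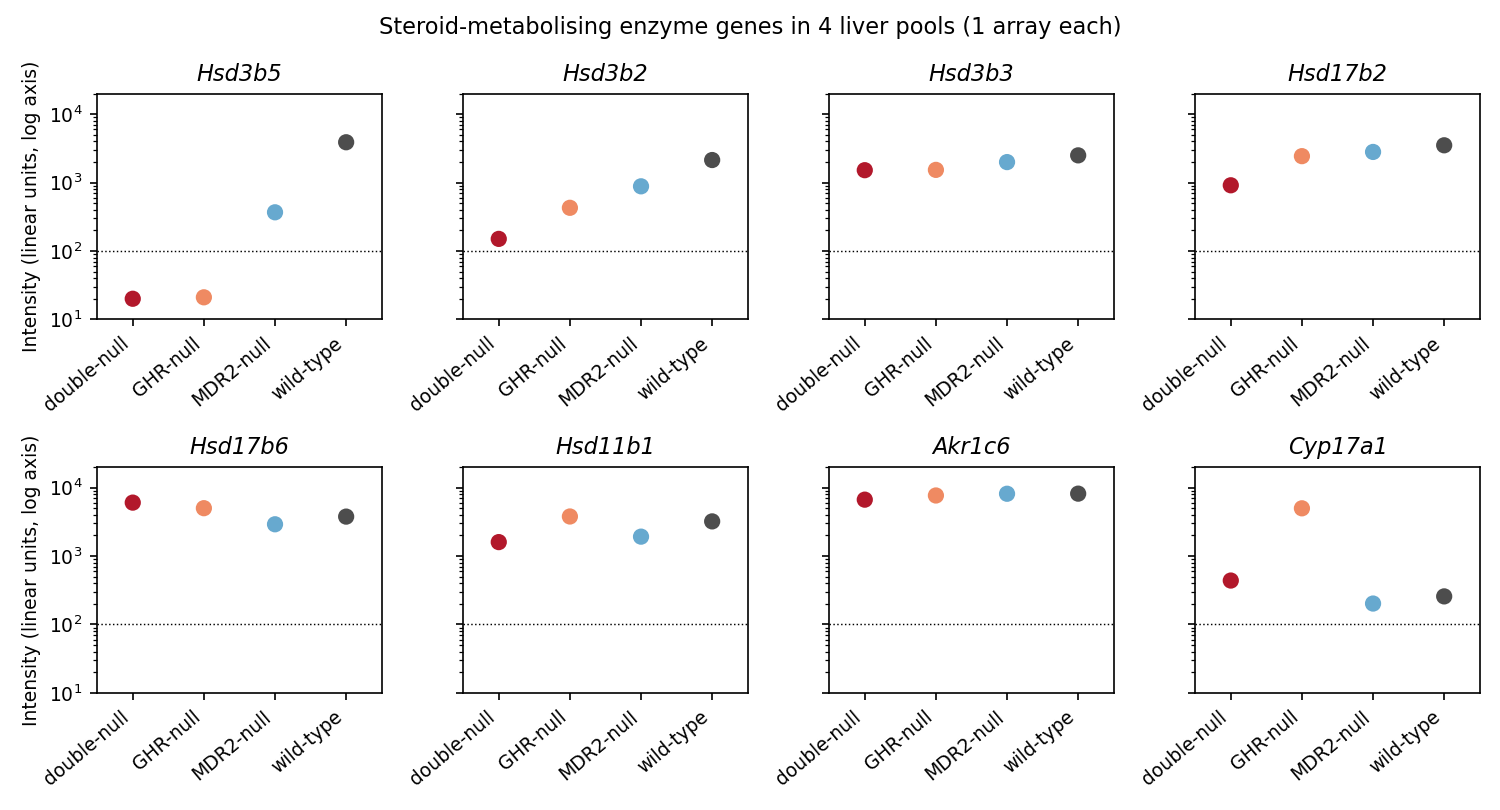
Intensity of the 8 steroid-metabolising enzyme genes (log axis, linear intensity units) in double-null, GHR-null, MDR2-null and wild-type liver, 1 array each. The dotted line marks the level filter at 100. Hsd3b5 reads 20 and 21 in double-null and GHR-null liver against 3877 in wild-type, and Cyp17a1 stands out in GHR-null liver alone, at 4980.

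The rest of the cluster was low or not separable. Hsd3b6 read 35 to 57 and Hsd3b1, the enzyme of adrenal and gonads, read 11 to 13 in the 4 pools. A pair of rows annotated jointly to Hsd3b5, Hsd3b4 and Gm10681 carried identical values, 42 in double-null, 38 in GHR-null and 89 in MDR2-null liver, against 146 in wild-type liver. As for Hsd3b5, both pools without GHR were lowest and wild-type highest, but 3 of these 4 values lie under 100. How far the probes of each row tell these paralogues apart was not tested. Hao2, the neighbour on the far side of Hsd3b1 and chosen here after its values were seen, encodes a hydroxyacid oxidase and was high only in the pool that showed Xist. It read 48 in double-null, 1507 in GHR-null and 23 in MDR2-null liver, against 19 in wild-type liver. With intensities under 100 set to 100 it was 15.1-fold higher in GHR-null than in wild-type liver, and the other pools were all at that floor. Wars2, the gene after it, differed at most 1.52-fold between the pools compared.

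**Figure D2:**
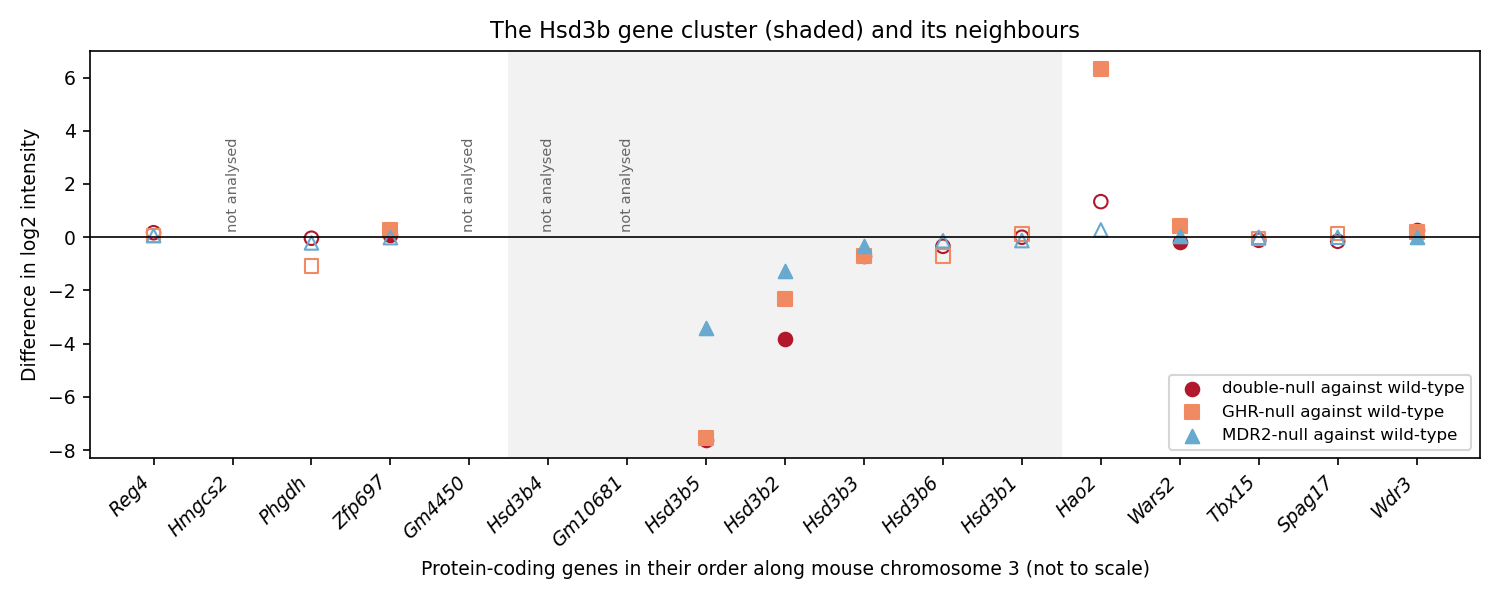
Difference in log2 intensity against wild-type liver for genes in their order along mouse chromosome 3, with the Hsd3b cluster shaded. Circles are double-null, squares GHR-null and triangles MDR2-null liver; open symbols are genes under an intensity of 100 in both arrays of the comparison. Hsd3b5, Hsd3b2 and Hsd3b3 lie below 0 in all 3 knockouts, while Hao2 is far above 0 in GHR-null liver, measured against a wild-type intensity of 19 that is itself under 100.

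Hsd17b2, which oxidises oestradiol to oestrone and testosterone to androstenedione, was lowest where both genes were lost. It read 911 in double-null, 2428 in GHR-null and 2798 in MDR2-null liver, against 3500 in wild-type liver. The double-null pool stood apart from the other 3, which lay within 1.44-fold of wild-type. It was 3.84-fold lower than wild-type, 3.07-fold lower than MDR2-null and 2.67-fold lower than GHR-null. Hsd17b6 is an oxidative enzyme that acts on 3-alpha-hydroxysteroids and can regenerate dihydrotestosterone from androstanediol. With loss of GHR it ran in the opposite direction, but like Hsd17b2 it was lower in MDR2-null than in wild-type liver. Hsd17b6 read 6032 in double-null and 5001 in GHR-null liver, against 2910 in MDR2-null and 3767 in wild-type liver. Both pools without GHR were above both pools with it, and double-null liver was 2.07-fold above MDR2-null liver, or 0.96 on the log2 scale with arrays centred on genes passing the filter.

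Hsd11b1 regenerates active glucocorticoid, corticosterone in the mouse, from its inactive 11-keto form. It read 1597 in double-null and 1919 in MDR2-null liver, against 3782 in GHR-null and 3207 in wild-type liver. Both pools without MDR2 were below both pools with it. The double-null pool was 2.37-fold below GHR-null liver, and MDR2-null liver was 1.67-fold below wild-type. Against wild-type, double-null liver was 2.01-fold lower as deposited and under 2-fold with cyclic loess (-0.94, log2) or hepatocyte centring (-0.85). The sums of cholangiocyte and macrophage markers were higher in both pools without MDR2 than in both pools with it. Summed over 7 cholangiocyte markers, intensity was 2066 in double-null and 880 in MDR2-null liver, against 594 in GHR-null and 493 in wild-type liver. The 8 macrophage markers summed to 9941 in double-null and 7436 in MDR2-null liver, against 4590 in GHR-null and 3272 in wild-type liver. Single markers did not all follow the sums: the cholangiocyte keratin Krt23 read 340 in double-null and 171 in MDR2-null liver, against 222 in GHR-null and 38 in wild-type liver, and the macrophage receptor Cd163 read 81 and 89 in double-null and MDR2-null liver, against 160 and 118 in GHR-null and wild-type liver. The 9 hepatocyte markers summed to 95889, 96426 and 95458 in double-null, GHR-null and MDR2-null liver, against 101293 in wild-type liver. The sums were 3260, 2871, 2953 and 2267 for 8 stellate cell markers, and 4361, 5508, 4830 and 4422 for 7 endothelial markers, in double-null, GHR-null, MDR2-null and wild-type liver. The part of these cells in the result was not tested.

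Akr1c6, also known as Hsd17b5, reduces androstenedione to testosterone in mouse liver and was the steadiest of the 8. It read 6664 in double-null, 7668 in GHR-null and 8129 in MDR2-null liver, against 8157 in wild-type liver. The largest difference was 1.22-fold, and MDR2-null liver lay on either side of wild-type depending on how the arrays were scaled (below it as deposited, and 0.10 log2 units above it with arrays centred on hepatocyte markers).

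Cyp17a1, the 17-alpha-hydroxylase and 17,20-lyase that opens the route from progestagens to androgens in gonads, was high in 1 pool. It read 438 in double-null, 4980 in GHR-null and 202 in MDR2-null liver, against 257 in wild-type liver. The GHR-null pool, which is also the one with Xist at 1400, was 19.4-fold above wild-type, and double-null was 11.4-fold below GHR-null liver. With GHR-null liver left out the differences were smaller, 2.17-fold higher in double-null than in MDR2-null liver and 1.70-fold higher in double-null than in wild-type liver. Of the adrenal markers, Cyp11a1 read 18, Star 30 and Cyp21a1 35 in GHR-null liver, against 19, 32 and 52 in wild-type liver.

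The counts of genes past 2-fold were read against the same count over all genes in which the brighter of the arrays compared reached 100. In GHR-null against wild-type liver, 2 of 8 were at least 2-fold lower (Hsd3b5 and Hsd3b2) and 1 higher (Cyp17a1), where 2.05% of 10052 genes differed by that much (1.06% higher, 0.985% lower). In double-null against MDR2-null liver, 3 of 8 were lower (Hsd3b5, Hsd3b2 and Hsd17b2) and 2 higher (Hsd17b6 and Cyp17a1), against 3.87% of 10524 genes (2.31% higher, 1.56% lower). Hsd3b5 and Hsd3b2 were also the 2 of 8 that were 2-fold lower in MDR2-null than in wild-type liver, with none higher, against 3.11% of 10258 genes (2.35% higher, 0.76% lower). In double-null against wild-type liver 4 of 8 were lower and none higher, Hsd11b1 at 2.01-fold being at the threshold, against 9.85% of 10487 genes (6.88% higher, 2.98% lower). In double-null against GHR-null liver 4 of the 7 genes bright enough were lower and none higher, against 7.82% of 10514 genes (4.71% higher, 3.11% lower). The median log2 difference of the 8 genes, taken without the level filter, was below 0 in each of these 5 comparisons. It ran from -0.86 in double-null to -0.31 in GHR-null liver, both against wild-type liver. The medians over all genes passing the filter were 0.01 and 0.10 there. In double-null against GHR-null liver the median of the 8 was -0.72, which includes Hsd3b5, under the filter in both pools. These comparisons share pools, so their counts are not independent. The 8 genes were also chosen with earlier results of these data known. The shares over all genes, here and below, are therefore a description and not a test.

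Whether loss of GHR went with the same difference with and without MDR2 was described by subtracting the difference of GHR-null minus wild-type from the difference of double-null minus MDR2-null. This value was at least 1 log2 unit from 0 for 3 of the 8 genes, against 3.69% of 10764 genes, whose robust SD was 0.32. It was 3.33 for Hsd3b5, where both pools without GHR read 20 and 21, under the level filter. It was -3.16 for Cyp17a1 and -1.09 for Hsd17b2. The Cyp17a1 value rests on its 4980 in GHR-null liver, the pool with Xist at 1400. None of these values can be had without that pool, and the part of sex in them was not tested. For Hsd3b2 it was -0.23, within the spread of a typical gene: GHR loss gave -2.55 with MDR2 absent and -2.32 with MDR2 present, in log2 units.

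**Figure D3:**
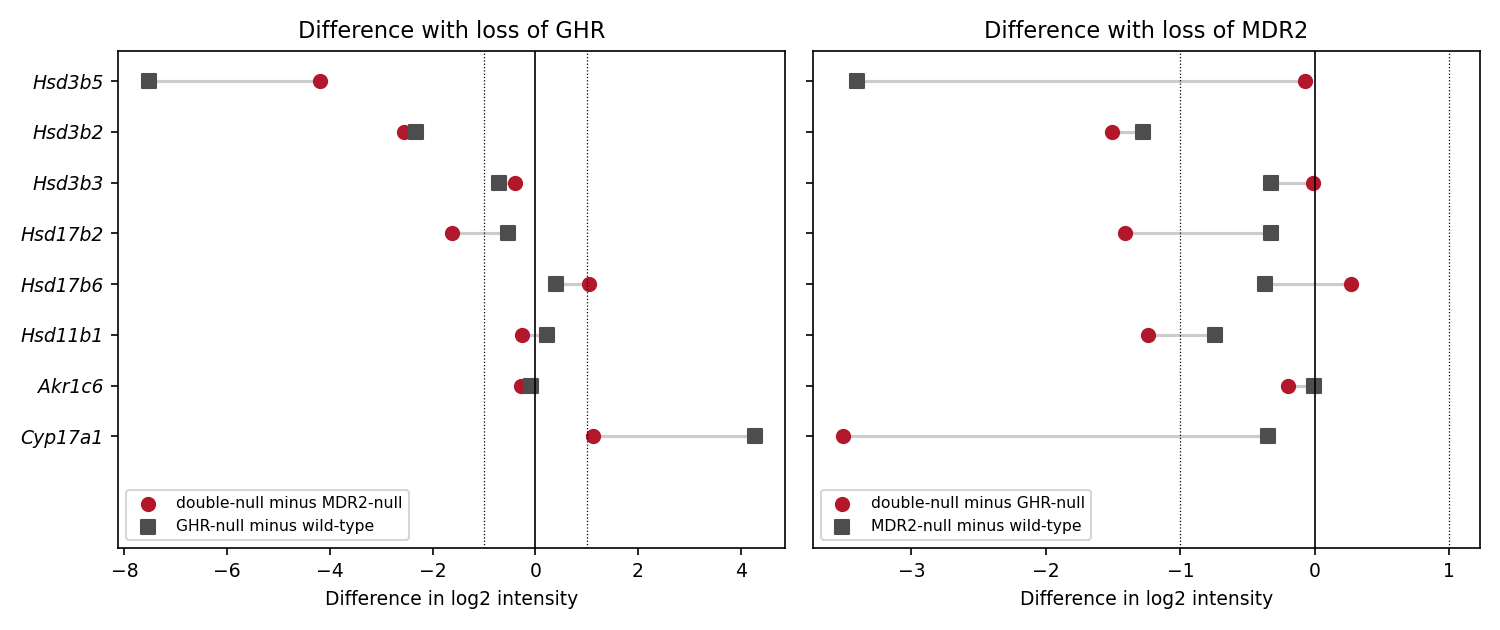
Difference in log2 intensity with loss of GHR (left) and of MDR2 (right) for each gene, in the background that lacks the other gene (circles) and in the one that has it (squares). Dotted lines mark 2-fold. The symbols nearly coincide for Hsd3b2 and lie far apart for Hsd3b5 and Cyp17a1.

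The only test available was a limma fit over all 4 arrays that adds an effect of each loss. It assumes that each loss acts alike in both backgrounds. Its 1 residual degree of freedom is each gene's departure from that assumption, moderated over all genes. The SE and p-values therefore do not measure spread between mice or between pools of a genotype. The average difference with GHR loss was -2.44 ± 0.15 (log2, SE) for Hsd3b2, with a limma Benjamini-Hochberg adjusted p of 0.0076, and 0.52% of 10764 genes passed at 0.05 (0.204% higher, 0.316% lower). Hsd3b2 was lower in both pairs of pools that differ in GHR. For Hsd3b5 it was -5.86 ± 0.73 (SE), with a limma adjusted p of 0.055, which did not pass. The other 6 genes had limma adjusted p of 0.23 or above for GHR loss. With MDR2 loss, Hsd3b2 averaged -1.39 ± 0.15 (SE; limma adjusted p = 0.025), where 3.75% of genes passed (2.99% higher, 0.762% lower), and Hsd11b1 averaged -0.99 ± 0.17 (SE; limma adjusted p = 0.0502), lower in both pairs but not past the threshold. Hsd3b2 thus fell with both losses in this fit. Both its calls were lost when genes under an intensity of 100 entered the fit (limma adjusted p = 0.518 for GHR and 0.327 for MDR2). Over the other settings its limma adjusted p lay at 0.00384 or above for GHR and 0.0156 or above for MDR2, all under 0.05. Without GHR-null liver the fit has no residual, so no p-value could be had.

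Other genes of steroid handling were taken from 7 lists. Of 60 listed genes, 51 were measured and 34 reached an intensity of 100 in each comparison. None of the 34 differed 2-fold between GHR-null and wild-type liver or between MDR2-null and wild-type liver. In double-null against wild-type liver 1 was higher and 2 lower, in double-null against MDR2-null liver 1 higher and 1 lower, and in double-null against GHR-null liver 3 higher and 4 lower. These are 8.82%, 5.88% and 20.6% of the 34, beside the 9.85%, 3.87% and 7.82% of all genes given above. The 20.6% is from the comparison with GHR-null liver, the pool with Xist at 1400, and the part of sex in it was not tested. Hsd3b7, which acts in bile acid synthesis, read 1172 in double-null and 1847 in MDR2-null liver, against 2422 in GHR-null and 2210 in wild-type liver. None of the 6 other 17-beta-hydroxysteroid dehydrogenases and none of the 6 other aldo-keto reductases bright enough differed 2-fold in any of the 5 comparisons. Srd5a3, of the 5-alpha reductase family, read 610 in double-null and 653 in MDR2-null liver, against 476 in GHR-null and 410 in wild-type liver. H6pd, which supplies the NADPH that Hsd11b1 uses, read 1569 to 1750 in the 4 pools. Cyb5b, an outer mitochondrial cytochrome b5, read 1650 in double-null, 3332 in GHR-null and 2447 in MDR2-null liver, against 3075 in wild-type liver. It was 2.02-fold lower in double-null than in GHR-null liver and 1.86-fold lower in double-null than in wild-type liver.

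Among receptors and binding proteins, Esr1, the oestrogen receptor alpha, was lowest in double-null liver, at 193, against 460 in GHR-null, 359 in MDR2-null and 401 in wild-type liver. Of the 6 receptor and binding genes bright enough it was the 1 past 2-fold, in the comparisons of double-null with wild-type and with GHR-null liver. Nr3c1, the glucocorticoid receptor, read 528 in double-null, 689 in GHR-null and 566 in MDR2-null liver, against 652 in wild-type. Glucocorticoid target genes differed in both directions. In double-null against GHR-null liver, the comparison with the pool that showed Xist, 3 of 9 were 2-fold higher and 1 lower. In double-null against wild-type and in double-null against MDR2-null liver 1 was higher and 1 lower. Fkbp5, a chaperone of the glucocorticoid receptor, read 415 in double-null, 171 in GHR-null and 211 in MDR2-null liver, against 322 in wild-type liver. Double-null liver was 2.43-fold above GHR-null but 1.29-fold above wild-type liver. The transcription factor Zbtb16 read 677 in double-null, 255 in GHR-null and 317 in MDR2-null liver, against 417 in wild-type liver, and double-null was 1.62-fold above wild-type. The clock gene Per1 read 281 in double-null, 128 in GHR-null and 195 in MDR2-null liver, against 114 in wild-type liver, and double-null was 2.46-fold above wild-type. G6pc, the glucose-6-phosphatase of glucose release, was the lower one, at 1487 in double-null, 3488 in GHR-null and 4743 in MDR2-null liver, against 4661 in wild-type liver. It was at least 2-fold lower in double-null than in each of the other 3 pools, 3.13-fold against wild-type. In the limma fit none of the 34 genes passed for GHR loss, with 5 at an unadjusted p under 0.05, beside 1405 of all 10764 genes. For MDR2 loss 14 of the 34 were under that p, beside 2541 of all genes, and 2 passed the adjusted threshold: Per1 averaged 0.95 ± 0.16 (log2, SE; limma adjusted p = 0.0432), and the membrane-bound Pgrmc2, named after its value was seen, averaged -0.89 ± 0.14 (SE; limma adjusted p = 0.0411). With no level filter the limma adjusted p was 0.327 for both.

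**Figure D4:**
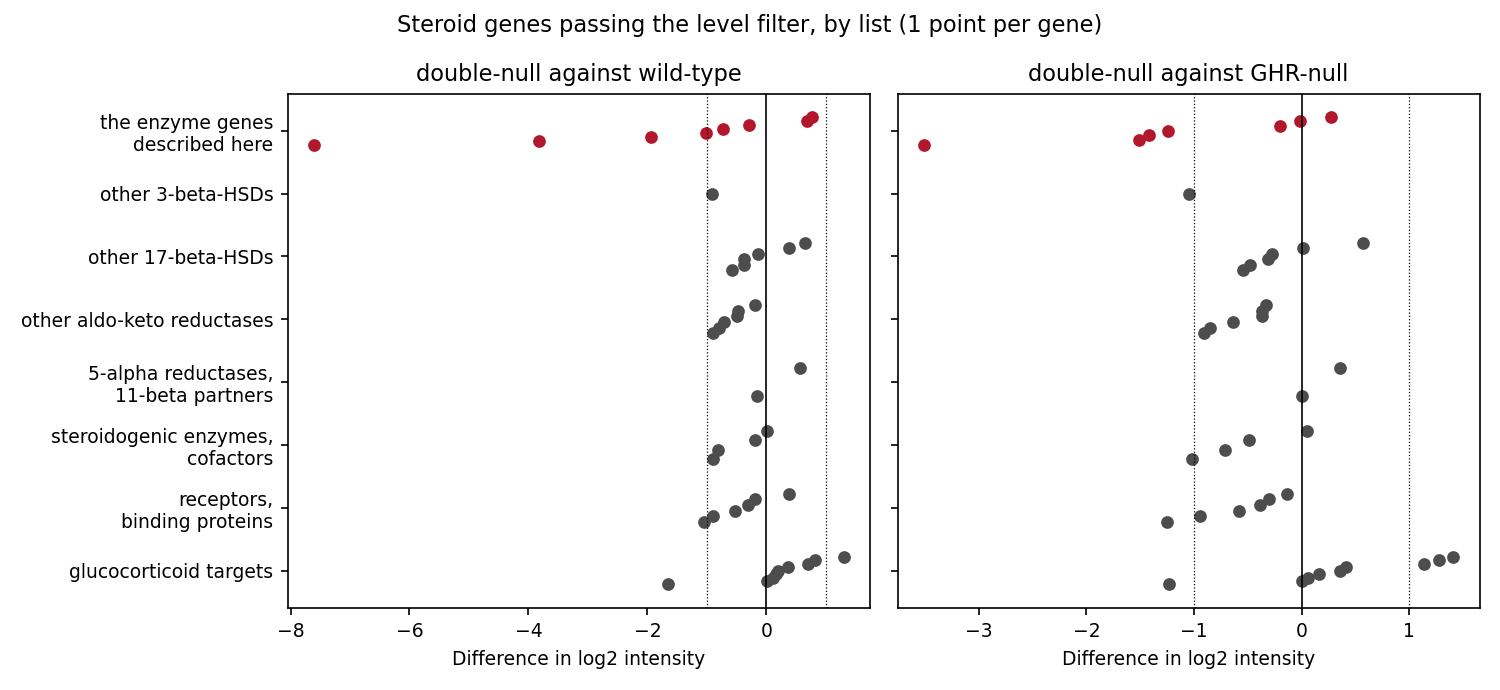
Difference in log2 intensity for the steroid enzyme genes described here (top row) and for 7 lists of other steroid genes, 1 point per gene reaching an intensity of 100, in double-null against wild-type liver (left) and double-null against GHR-null liver (right). Dotted lines mark 2-fold. On the left, Hsd3b5 at -7.60, Hsd3b2 at -3.83 and Hsd17b2 at -1.94 lie below every point of the other lists. On the right, Cyp17a1 at -3.51, Hsd3b2 at -1.51 and Hsd17b2 at -1.41 do so. With intensities under 100 set to 100, the Hsd3b5 difference on the left is -5.28.

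Genes with the most similar patterns were found by the Euclidean distance of their 3 log2 differences from wild-type, over 4 arrays and 10468 named genes with an intensity of 100 or more in some pool. Nearest to Hsd3b5 were Serpina4-ps1, a serpin pseudogene, at a distance of 1.42, the fatty acid elongase Elovl3 at 2.35 and the fatty acid hydroxylase Cyp4a12a at 4.26. Elovl3 read 24 in double-null, 28 in GHR-null and 1103 in MDR2-null liver, against 2806 in wild-type liver. Its MDR2-null level thus lay closer to wild-type than that of Hsd3b5 did. Cyp4a12a lay closer still, at 7139 in MDR2-null against 7891 in wild-type liver. Nearest to Hsd3b2 were Adh6-ps1 at 0.70, Cyp2c67 at 0.82 and the oxysterol hydroxylase Cyp7b1 at 0.93. Hsd17b2 was matched closely by Slc22a7, an organic anion carrier, at 0.03, which read 139 in double-null, 374 in GHR-null and 433 in MDR2-null liver, against 544 in wild-type liver. Acsm1 at 0.19 and the serum amyloid Saa4 at 0.21 followed. Nearest to Hsd17b6 were Slc35g1 at 0.08, Jade3 and the sterol transporter Abcg5, both at 0.16, and nearest to Hsd11b1 were N4bp2l1 at 0.05, Txnrd3 and Shroom1, both at 0.08. Nearest to Cyp17a1 were Cyp3a16 at 1.01, Slc22a29 at 1.03 and Slc22a26 at 1.31. Slc22a26 read 21 in double-null, 700 in GHR-null and 24 in MDR2-null liver, against 30 in wild-type liver. It and Cyp3a16 reached 100 only in GHR-null liver, so these distances rest in part on intensities under 100. The same limit holds for Hsd3b5, Serpina4-ps1 and Elovl3, all under 100 in both pools without GHR. Adh6-ps1, nearest to Hsd3b2, read 31 in double-null liver.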

How the data were processed

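Hybridisation intensity was measured on Affymetrix mouse whole-transcript arrays, 1 per genotype. The deposited intensity values came from RMA in Affymetrix Expression Console 1.1, per the submitters' processing notes; they are whole numbers from 6 to 22355, so log2 was taken before any difference. Rounding makes differences between low intensities coarse. The number of arrays limits the precision. Of 35556 rows, 21789 carried exactly 1 symbol in GEO's platform annotation, 1621 several and 12146 none. A gene with several rows (999 of 19938) took the row with the highest mean. A gene was counted at 2-fold where the brighter array reached 100, the median of rows with 1 symbol.

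limma 3.58.1 (R 4.3.3) was fitted with 1 residual and 4.34 prior degrees of freedom and Benjamini-Hochberg adjustment at 0.05. The fit was tested on simulated additive data with known changes, which cannot test the assumption that each loss acts alike in both backgrounds.

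The genes described, the lists and the alternatives were chosen with earlier results of these data known. Named beyond the 8 genes were the up to 4 list members past 2-fold with the largest difference, gland markers, sex-linked and targeted genes, and the 3 genes nearest in pattern to each gene past 2-fold; list members named at values under 2-fold (Hsd3b1, Hsd3b6, Srd5a3, H6pd, Nr3c1, Pgrmc2), Krt23, Cd163, Hao2 and Wars2 were chosen after their values were seen. Alternatives were the level filter, the fold threshold, cyclic loess, array centring, the mean of a gene's rows, a floor at 100, and limma's trend and robust settings.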

Additional observations from a re-analysis of the deposited data

Results flagged for a closer look

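Xist read 1400 in GHR-null liver, which is labelled male, against 16 in wild-type liver. Opposite directions in the 2 backgrounds were seen for 2 genes. Hsd17b6 had a log2 difference with MDR2 loss of 0.27 in double-null against GHR-null liver and of -0.37 in MDR2-null against wild-type liver. Hsd11b1 had a log2 difference with GHR loss of -0.26 in double-null against MDR2-null liver and of 0.24 in GHR-null against wild-type liver. Neither contrast of differences was tested. Over all genes that contrast had a robust SD of 0.32. This corresponds to 0.23 per single difference if the 2 differences are independent and equal in spread, which was not measured.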

How the results depend on the processing

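Of 114 counts recomputed under the alternatives, 107 stayed within 1.5 times the reported count and 7 did not. With a 1.5-fold threshold, 2 genes in place of none were higher in double-null than in wild-type liver. With arrays centred on genes passing the filter, 1 gene in place of 2 was at least 2-fold higher in double-null than in MDR2-null liver, Hsd17b6 being at 0.96 (log2). Hsd11b1 was at -0.94 with cyclic loess and -0.85 with hepatocyte centring in double-null against wild-type liver. In the limma fit, averaging a gene's rows gave 2 genes lower in place of 1 for GHR loss (adding Hsd3b5, limma adjusted p = 0.041) and 2 in place of 1 for MDR2 loss (adding Hsd11b1, limma adjusted p = 0.041). Trend and robust settings also gave 2 for MDR2 loss (Hsd11b1, limma adjusted p = 0.043). Over the settings the limma adjusted p lay between 0.0411 and 0.518 for Hsd3b5 with GHR loss and between 0.0412 and 0.327 for Hsd11b1 with MDR2 loss. Over all genes limma called 56 for GHR loss and 32 with the filter at the 75th percentile; for MDR2 loss it called 404, against 69 with that filter and 664 with hepatocyte centring. With no level filter limma called 0 genes for either loss, with 3 and 2 of the 8 at an unadjusted p under 0.05 for GHR and MDR2 loss, beside 1828 and 2928 of all 19938 genes (6 and 4 of the 8 as reported, beside 1405 and 2541 of 10764); prior degrees of freedom were then 1.41, and the cause was not tested. No difference past 2-fold changed sign. Signs that did turn with the scaling were those of Akr1c6 between MDR2-null and wild-type liver and of Hsd3b5 and Hsd3b3 between double-null and GHR-null liver. Centring on genes passing the filter shifted the all-gene median by -0.12 (log2) in GHR-null against wild-type liver, where higher calls made up 41.3% of all calls in place of 51.9%, and that share was 49.5% in place of 59.7% in double-null against MDR2-null liver. Hepatocyte centring moved the median by 0.15 in double-null against wild-type liver, 0.11 in MDR2-null against wild-type liver and 0.11 in double-null against GHR-null liver, where the share of higher calls was 70.3%, not 60.2%. No paired analysis was possible because each genotype is 1 array.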
